A study of Drosophila melanogaster with 13 samples.

Results

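The widest open regions of the *Drosophila melanogaster* eye-antennal disc are described here. They are the merged peaks of at least 1500 bp, measured as end minus start with starts counted from 0, and 77 of the 36506 merged peaks with counts (0.211%) reached that width. A merged peak joins overlapping peaks called in any of the 11 open chromatin libraries, so the peak calls of tumor, Upd and wild type libraries together set the widths, and how the regions were called is given as a description.

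Open chromatin was profiled with a pair of techniques. ATAC-seq lets a transposase cut and tag DNA that is not covered, and FAIRE-seq collects sheared DNA that was not bound to protein by the fixative. ATAC-seq covered 1 early tumor, 1 late tumor, 2 Upd and 3 wild type libraries, and FAIRE-seq covered 1 early tumor, 1 late tumor and 2 wild type libraries. A further ChIP-seq library of CTCF from CantonS discs, called against its input, gave a list of 3679 CTCF peaks. The comparisons ask how the open chromatin of these discs changes in RasV12; scrib-/- tumors and in discs that overexpress Upd.

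Tumor discs came from a cross of y,w flies with eyFlp, an act>y+>Gal4 driver, UAS-GFP and FRT82 with Tub-Gal80 to y,w flies with UAS-RasV12 and the scrib2 allele on an FRT82 chromosome. The recombinase is driven by ey, so a tumor disc holds GFP-marked mutant clones beside cells of other genotypes, and all its cells carry transgenes that the wild types lack. Upd discs came from GMR-gal4 crossed to UAS-UPD:GFP, and GMR drives expression behind the furrow of the developing eye rather than in the whole disc. The wild types were w;;FRT82, DGRP-208 and Optix-GFP for ATAC-seq, and w;;FRT82 and CantonS for FAIRE-seq. The labels give the wandering stage of the last larval instar for every library, while the study's methods say that late tumors were collected days after wandering began from larvae that do not pupate. The labels give 10 discs for each ATAC-seq and 200 for each FAIRE-seq library, while the methods describe a smaller number of whole tumors for late tumor ATAC-seq and head complexes for FAIRE-seq. Within a technique each wild type library is a different strain, and nothing says that libraries of a group came from separate crosses, so that p-values measure only the spread between these libraries, which may be technical.

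Nucleosomes are displaced from active promoters and enhancers, and the DNA left accessible there is what both techniques read. A long accessible stretch can hold several such elements side by side. RasV12 is a constitutively active form of the Ras GTPase and Scrib a scaffold of epithelial polarity, and clones with both lesions overgrow and fail to differentiate. Upd is a secreted ligand of the JAK/STAT pathway, and CTCF is a zinc-finger protein that binds insulators.

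The libraries had between 2375435 and 10871706 reads in merged peaks. Libraries of 1 group varied beyond counting noise, and the chi-square of their counts was 2.87 to 12.2 times its degrees of freedom over all merged peaks. Over the wide regions alone it was 9.60 to 69.8 times, lowest between the Upd libraries and highest between FRT82 and Optix-GFP ATAC-seq. Such a ratio rises with the count, and wide regions hold more reads, so these ranges do not show that wide regions vary more. The files pair no merged peak with a gene, so the discs were not checked against marker genes of eye or antenna. A gene is named below only where the study pairs it with another region close by, and those pairs were drawn up for genes and regions that changed.

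The 77 regions had a median width of 1640 bp, against 269 bp over all merged peaks, and together covered 130578 bp (1.04% of the length of all merged peaks). Only 5 reached 2000 bp. The widest was a 2541-bp region of 3R (17121456 to 17123996 in dm3), followed by a 2165-bp region of 2L (72037 to 74201), a 2154-bp region of 3R (9540617 to 9542770), a 2138-bp region of 2R (8803156 to 8805293) and a 2134-bp region of 2R (14043688 to 14045821). Next came a 1991-bp region of chromosome 4 (527469 to 529459), a 1957-bp region of 3R (14905143 to 14907099) and a 1952-bp region of 2R (4081841 to 4083792). A region paired with zfh2, which encodes a zinc-finger homeodomain protein, lies 1032 bp from the chromosome 4 region. The X chromosome held 20 of the 77, which is 25.97%, against 17.6% of all merged peaks.

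Most of the regions were mosaics of shorter calls. A called peak overlapped 72 of the 77 in all 11 libraries, but a single called peak of at least 1500 bp was found in 22 only, and in 55 no library had one. The widest single call per region had a median of 1261 bp and went down to 609 bp. The calls of 1 library covered a median of 72.9 to 81.7% of a region's length by ATAC-seq and 48.9 to 68.8% by FAIRE-seq. Just inside the limit were regions of 1500 bp (3L, 1442060 to 1443559), 1504 bp (2R, 9325159 to 9326662) and 1512 bp (3L, 3325823 to 3327334). Their log2 fold changes in tumors were -0.45, 0.28 and 0.01. Just outside were 2 merged peaks of 1496 bp (2R, 11112818 to 11114313 and 3L, 22183934 to 22185429) and 1 of 1498 bp (3R, 7178097 to 7179594), with -2.14, 0.06 and 0.37, so that a merged peak with one of the larger decreases lay only just below the limit.

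Levels are given as CPM per kb, the read count of a region scaled to the reads in merged peaks of its library (CPM, with TMM factors across the 11 libraries) and divided by its length in kb. In wild type discs the wide regions had a median of 136 CPM per kb by ATAC-seq, against 43.7 in merged peaks under 1500 bp. By FAIRE-seq the medians were 90.5 and 49.0 CPM per kb. The level increased with width in both techniques: the ATAC-seq median was 127 CPM per kb from 1000 to under 1500 bp, 92.6 from 500 to under 1000 bp and 37.7 under 500 bp, and the FAIRE-seq median 79.2, 67.4 and 44.4. Peak calls on reads of these same libraries set the widths, so the levels by width are a description. Wide regions also have more bases, and their median raw count in wild type ATAC-seq was 1555 reads, against 81 in narrower peaks. The median standard error of the log2 fold change in tumors was 0.15 in wide regions and 0.27 over all merged peaks.

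Among the wide regions themselves, the wild type ATAC-seq level spanned 47.8-fold and the FAIRE-seq level 29.4-fold. The highest ATAC-seq level was that of a 1834-bp region of the X (1292556 to 1294389). It had 339, 297 and 735.5 CPM per kb by ATAC-seq in FRT82, DGRP-208 and Optix-GFP discs, against 85.0 and 90.1 by FAIRE-seq in FRT82 and CantonS discs. The Optix-GFP value was more than that of any other library there, and the 3 ATAC-seq values were all above the FAIRE-seq values. A region paired with futsch, which encodes a microtubule-associated protein, lies 10704 bp away. The next highest were a 1513-bp region of 2R (2388191 to 2389703), with 370.5, 341 and 441 CPM per kb by ATAC-seq, and a 1608-bp region of 3L (13492245 to 13493852), with 416, 331 and 324.

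The lowest levels in wild type discs were those of a 1639-bp region of 2R (14056538 to 14058176), with 6.56, 10.2 and 11.98 CPM per kb by ATAC-seq in FRT82, DGRP-208 and Optix-GFP discs, and of the 1957-bp region of 3R, with 16.1, 24.0 and 15.7. Both opened in tumors. Next came a 1781-bp region of the X (11426743 to 11428523), with 29.4, 40.8 and 40.7 CPM per kb. Its tumors had 41.7 and 59.9 by ATAC-seq and 54.8 and 84.8 by FAIRE-seq, against 41.7 and 33.0 in FRT82 and CantonS wild types by FAIRE-seq, and the log2 fold change of 0.64 ± 0.20 missed the threshold (edgeR's adjusted p = 0.0187). In all, 73 of the 77 had more than 50 CPM per kb.

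The level of most wide regions was higher by ATAC-seq than by FAIRE-seq. Peak calls of 7 ATAC-seq and 4 FAIRE-seq libraries set the widths, so the counts of this comparison are a description. In wild type discs 32 of the 77 were higher by ATAC-seq and 1 was higher by FAIRE-seq (edgeR's quasi-likelihood test, Benjamini-Hochberg over all merged peaks, adjusted p under 0.01), where 9.94% of all merged peaks were higher by ATAC-seq and 13.2% by FAIRE-seq. All ATAC-seq libraries were above all FAIRE-seq libraries in 53 regions (68.8%, against 29% of all merged peaks) and below them in 3 (3.896%, against 31.7%). The median log2 ratio of ATAC-seq to FAIRE-seq was 0.63, against -0.00 over all merged peaks. It was 0.72 from 1000 to under 1500 bp, 0.54 from 500 to under 1000 bp and -0.16 under 500 bp, so that the wide regions followed the other classes over 500 bp. With total counts in place of TMM the median of all merged peaks moved by -0.40 and that of the wide regions to 0.23, with 20 higher and 2 lower. The number of regions higher by ATAC-seq rested on few libraries, since it fell when either FAIRE-seq library was left out and 1 remained. The median log2 ratio of the wide regions was then 0.68 without the FRT82 and 0.60 without the CantonS FAIRE-seq library. Number of discs, crosslinking and strain differ with the technique, and their part in the difference was not tested.

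**Figure D1:**
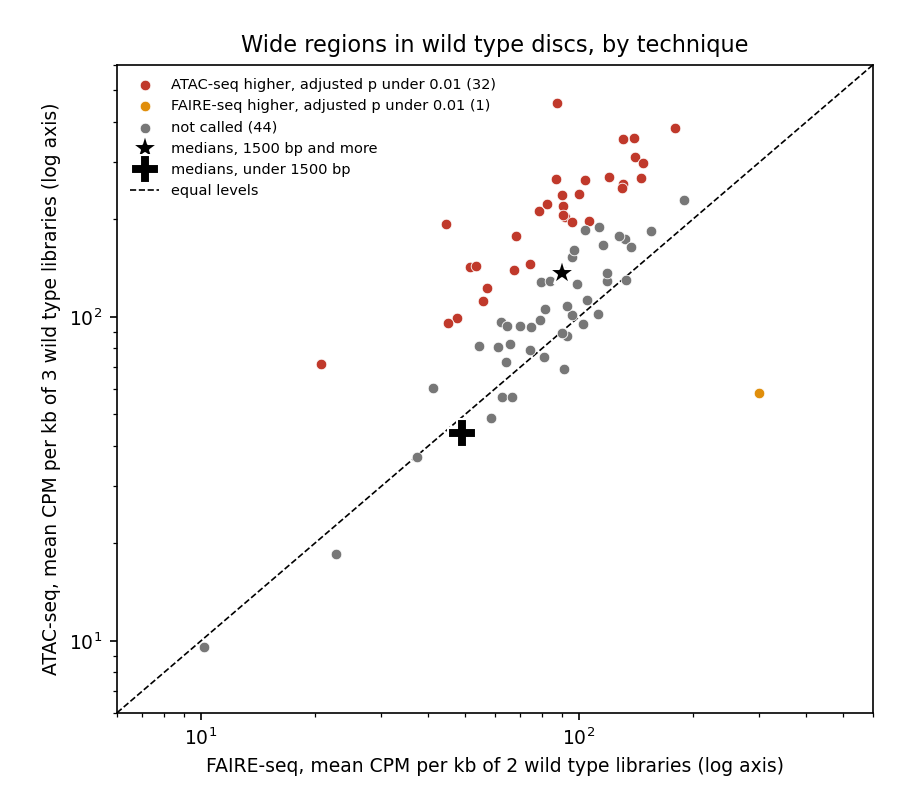
Mean CPM per kb of each of the 77 wide regions in wild type discs by ATAC-seq (vertical, 3 libraries) and FAIRE-seq (horizontal, 2 libraries), both on log axes, coloured by the edgeR call. Most points lie above the dashed line of equal levels: 32 regions were called higher by ATAC-seq and 1, far to the right at 299 CPM per kb, higher by FAIRE-seq. The star and the cross mark the medians of wide regions and of narrower merged peaks.

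The 3 regions richest in ATAC-seq were the 1834-bp region of the X (log2 ratio 2.39 ± 0.38 SE, adjusted p = 0.00077 by edgeR), a 1628-bp region of 3L (2084619 to 2086246, 2.14 ± 0.29, adjusted p = 9.61e-05) and a 1738-bp region of 2R (20249742 to 20251479, 1.79 ± 0.25, adjusted p = 0.000114). The 1738-bp region had 68.1, 65.2 and 81.0 CPM per kb by ATAC-seq in FRT82, DGRP-208 and Optix-GFP discs, against 22.5 and 19.1 by FAIRE-seq in FRT82 and CantonS discs, and 7 libraries had a called peak in it. All 3 kept their direction but not their call without the CantonS library, and the 1834-bp region also lost it without the FRT82 FAIRE-seq library.

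A 1654-bp region of the X (8188225 to 8189878) went the other way. It had 78.1, 54.5 and 41.7 CPM per kb by ATAC-seq in FRT82, DGRP-208 and Optix-GFP discs, against 351 and 248 by FAIRE-seq in FRT82 and CantonS discs. The groups did not overlap, and the log2 ratio was -2.36 ± 0.27 (edgeR's adjusted p = 5.47e-05), so that its FAIRE-seq level was 5.14 times its ATAC-seq level. The next in that direction were a 1548-bp region of 3R (18193114 to 18194661), with a log2 ratio of -0.40 ± 0.23, and the 1957-bp region of 3R, with -0.28 ± 0.27, neither of them past the threshold. With total counts the 1548-bp region passed it, at -0.80 (adjusted p = 0.00596 by edgeR).

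The wide regions took up a slightly larger part of the reads in tumors. Tumor peak calls help to set the widths, and the 1639-bp region of 2R had called peaks in tumor libraries only. It is part of these shares, so they are a description. They held 1.95% of the reads of the early and 1.94% of the late tumor ATAC-seq library, against 1.84, 1.81 and 1.89% in FRT82, DGRP-208 and Optix-GFP wild types. By FAIRE-seq they held 1.56% in the early and 1.61% in the late tumor, against 1.45 and 1.47% in FRT82 and CantonS wild types. Tumor and wild type values did not overlap in either technique, at a mean of 1.94 ± 0.0060% against 1.85 ± 0.041% by ATAC-seq (SD, n = 2 and 3) and 1.58 ± 0.033% against 1.46 ± 0.012% by FAIRE-seq (SD, n = 2 each). The Upd libraries, at 1.78 and 1.77%, were below the wild types. In bulk discs, fewer cells with an open region cannot be told apart from less opening per cell.

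**Figure D2:**
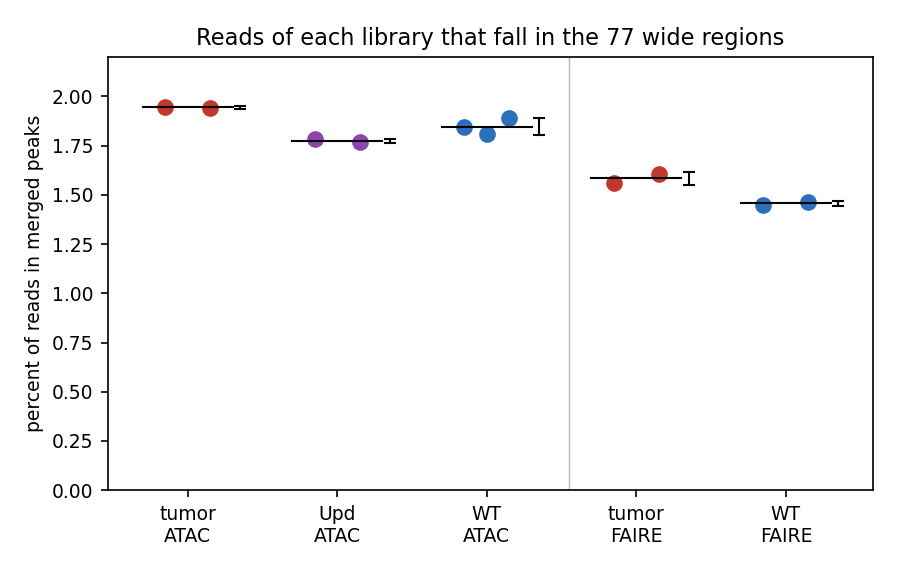
Percent of the reads in merged peaks of each library that fall in the 77 wide regions, by group and technique, with points for libraries, lines for means and bars for the SD. Tumors lie above wild types of the same technique and Upd discs below them, and all ATAC-seq libraries, at 1.77 to 1.95%, lie above all FAIRE-seq libraries, at 1.45 to 1.61%. Peak calls of these libraries set the widths, so the shares are a description.

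In tumors, with both techniques in 1 model and the technique as a term, 13 wide regions opened and 5 closed (edgeR's quasi-likelihood test, Benjamini-Hochberg, adjusted p under 0.01). The 13 are 16.9% of the 77, where 11.6% of all merged peaks opened, and the 5 are 6.49%, where 12.5% closed. Tumor peak calls help to set the widths, and the 1639-bp region of 2R, among the 13, had called peaks in tumor libraries only. It also enters the counts and the median that follow, so these are a description. Changes of more than 2-fold were few, with 3 up (9.71% of all merged peaks) and 3 down (11% of all merged peaks). The median log2 fold change was 0.15, against -0.03 over all merged peaks, and 51 of the 77 were above 0 (66.2%, against 47.7% of all merged peaks). From 1000 to under 1500 bp the median was 0.08 and 58.1% were above 0, so this lean was not particular to the wide regions. The SD of the changes was 0.65, against 0.77 from 1000 to under 1500 bp and 0.92 over all merged peaks. Their median absolute log2 fold change was 0.29, against 0.30 and 0.51, and 56 of the 77 had one under 0.5. All tumors were above all wild types of their technique in 28 regions (36.4%, against 17% of all merged peaks) and below them in 9 (11.7%, against 18.3%).

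The share of calls did not follow width, while the share of large changes was smaller in wider classes. Counting both directions, 23.4% of wide regions were called, 24.6% from 1000 to under 1500 bp, 33.4% from 500 to under 1000 bp and 21.997% under 500 bp. An absolute log2 fold change above 1, called or not, was found in 7.79% of wide regions, 16.1%, 26.1% and 26.6% of these classes. Total counts in place of TMM gave 12 opened and 7 closed, with a median of 0.10 in wide regions and -0.08 over all merged peaks. DESeq2's Wald test gave 19 opened and 4 closed, and median-ratio size factors in edgeR 14 opened and 3 closed. Both moved the median of all merged peaks by 0.08. The counts fell to 6 opened and 3 closed without the early tumor ATAC-seq library, 7 and 3 without the late tumor ATAC-seq library, and 5 and 3 without the late tumor FAIRE-seq library. The closed ones were also 3 without the FRT82 or the Optix-GFP ATAC-seq or the FRT82 FAIRE-seq library. For these other fits the share of all merged peaks called is not given, so their counts cannot be set against a background. Neither the share of calls nor the spread of the list was tested against other merged peaks.

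ATAC-seq alone gave 10 opened and 5 closed wide regions (12.99% and 6.49%, where 13.5% of all merged peaks opened and 12.8% closed). FAIRE-seq alone gave 2 opened and 1 closed (2.60% and 1.30%, where 1.58% and 0.781% of all merged peaks did), and 21 of the 77 had an unadjusted p under 0.05 (27.3%, near the 24.2% of all merged peaks). The SD of the log2 fold changes was 0.82 by ATAC-seq and 0.47 by FAIRE-seq, and 59 of the 77 had the same sign in both. The medians were 0.19 by ATAC-seq and 0.24 by FAIRE-seq, against 0.00 and 0.01 over all merged peaks. From 1000 to under 1500 bp they were 0.08 and 0.14. With total counts the FAIRE-seq median of all merged peaks moved by -0.11, and that of the wide regions was then 0.13. By ATAC-seq the counts were 3 opened and 3 closed without the early tumor and 4 and 2 without the late tumor. By FAIRE-seq they were 6 and 3 without the early tumor, 0 and 0 without the late tumor (5 then had an unadjusted p under 0.05), 7 and 1 without the FRT82 wild type, and 2 and 2 without the CantonS wild type. The interaction of tumor and technique was called in 0 of the 77 in either direction by edgeR, where 0.011% of all merged peaks were called with a log2 fold change higher by ATAC-seq than by FAIRE-seq and 0% with a lower one. There 8 of the 77 had an unadjusted p under 0.05 (10.4%, against 17.3% of all merged peaks), and the lowest adjusted p was 0.0916.

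**Figure D3:**
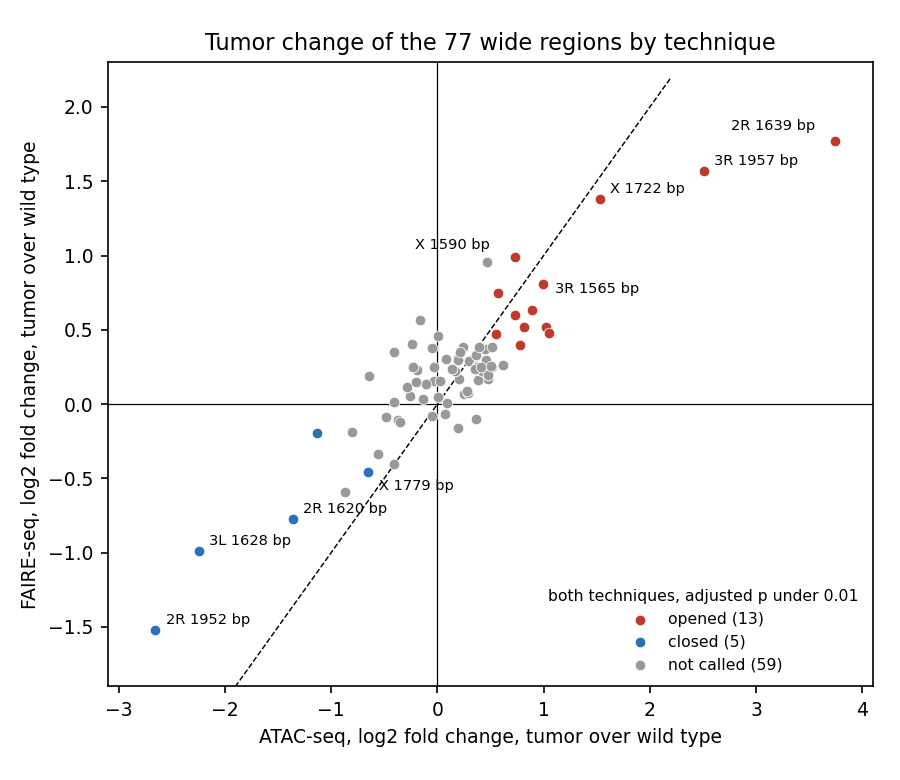
Log2 fold change of tumor over wild type of the 77 wide regions by ATAC-seq (horizontal, 2 tumors and 3 wild types) and by FAIRE-seq (vertical, 2 and 2), coloured by the call with both techniques, with the named regions labelled by chromosome and width. The strongest changes lie flatter than the dashed line of equal change, with the 1639-bp region of 2R at 3.74 by ATAC-seq and 1.77 by FAIRE-seq, and 59 of 77 points are in the 2 quadrants of equal sign.

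The region that opened most was the 1639-bp region of 2R. By ATAC-seq it had 71.3 CPM per kb in the early and 183 in the late tumor, against 6.56, 10.2 and 11.98 in FRT82, DGRP-208 and Optix-GFP wild types. By FAIRE-seq it had 17.1 and 51.7 in the early and late tumor, against 8.84 and 11.5 in FRT82 and CantonS wild types. Both tumors were above all wild types of their technique, and the late tumor was the highest in each. The log2 fold change over both techniques was 2.88 ± 0.48 SE, which is 7.35-fold (edgeR's adjusted p = 0.000914). Late against early, it was 1.43 ± 0.49, with an unadjusted p of 0.013 that did not remain after adjustment (adjusted p = 1). A peak was called there in 2 libraries only, the ATAC-seq libraries of the early and late tumor, and the single peak of the late tumor spans the whole width. The calls of tumors thus set the width of this region. A region paired with CG10916 begins 570 bp further on. Of the 14 other merged peaks within 10 kb, 3 opened and 0 closed, and the 2134-bp wide region 10716 bp before it had a log2 fold change of -0.10 ± 0.13.

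The 1957-bp region of 3R had 113 and 98.3 CPM per kb in the early and late tumor by ATAC-seq, against 16.1, 24.0 and 15.7 in FRT82, DGRP-208 and Optix-GFP wild types. By FAIRE-seq the tumors had 51.6 and 78.5, against 24.1 and 21.4 in FRT82 and CantonS wild types. Tumors were above wild types throughout, with a log2 fold change of 2.05 ± 0.22 (4.15-fold, edgeR's adjusted p = 3.75e-05), and 8 libraries had a called peak in it. The Upd libraries, at 15.2 and 17.4, were within the range of wild types or just below it. Of the 10 other merged peaks within 10 kb, 1 opened and 0 closed.

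A 1722-bp region of the X (15502098 to 15503819) opened too, and was more accessible in wild types than the regions before it. It had 261 and 290 CPM per kb in the early and late tumor by ATAC-seq, against 71.5, 101 and 115 in FRT82, DGRP-208 and Optix-GFP wild types, and 94.0 and 131 by FAIRE-seq, against 50.9 and 38.9 in FRT82 and CantonS wild types. The log2 fold change was 1.42 ± 0.17 (2.67-fold, edgeR's adjusted p = 5.61e-05), and no tumor overlapped a wild type of its technique. Of the 5 other merged peaks within 10 kb, 3 opened as well.

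The other named opened regions changed by less than 2-fold. A 1565-bp region of 3R (22382332 to 22383896) had 128 and 111 CPM per kb in the early and late tumor by ATAC-seq, against 66.0, 63.3 and 51.1 in FRT82, DGRP-208 and Optix-GFP wild types, with a log2 fold change over both techniques of 0.87 ± 0.16 (edgeR's adjusted p = 0.000705). A 1590-bp region of the X (1734372 to 1735961) had 144 and 184, against 84.3, 90.1 and 124, and 0.80 ± 0.18 (edgeR's adjusted p = 0.003). FAIRE-seq tumors were also above wild types in both, at 61.4 and 76.96 against 46.3 and 35.9 CPM per kb in the 3R region and 75.04 and 107 against 56.1 and 39.3 in the X region. None of the 6 other merged peaks within 10 kb of the 3R region was called, while 5 of 8 opened around the X region. The X region lost its call without the late tumor ATAC-seq or the late tumor FAIRE-seq library. Over all 13 opened regions the log2 fold change was between 0.47 and 2.88, with 10 below 1, and in 12 of them no tumor overlapped a wild type of its technique.

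The FAIRE-rich 1654-bp region of the X was among the 13. Its tumors had 109.5 and 131 CPM per kb by ATAC-seq, against 78.1, 54.5 and 41.7 in FRT82, DGRP-208 and Optix-GFP wild types, and 411 and 397 by FAIRE-seq, against 351 and 248 in FRT82 and CantonS wild types. The log2 fold change was 0.75 ± 0.19 (edgeR's adjusted p = 0.007). The gap between the techniques was therefore seen in tumors too.

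Among the 5 closed regions the 1952-bp region of 2R fell most. It had 45.2 and 39.6 CPM per kb in the early and late tumor by ATAC-seq, against 269, 239 and 293 in FRT82, DGRP-208 and Optix-GFP wild types. By FAIRE-seq it had 37.3 and 21.3 in the early and late tumor, against 94.5 and 79.1 in FRT82 and CantonS wild types. All tumors were below all wild types, with a log2 fold change of -2.18 ± 0.24 (4.54-fold lower, edgeR's adjusted p = 3.84e-05). It had a called peak in all 11 libraries, and among the 7 other merged peaks within 10 kb 1 opened and 0 closed. The FAIRE-seq change of -1.52 ± 0.24 was smaller than that by ATAC-seq, -2.65 ± 0.22, and the interaction did not pass the threshold (edgeR's adjusted p = 0.0916).

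The 1628-bp region of 3L had 45.3 and 36.3 CPM per kb in the early and late tumor by ATAC-seq, against 181, 149 and 251 in FRT82, DGRP-208 and Optix-GFP wild types, and 27.8 and 15.3 by FAIRE-seq, against 53.4 and 35.5 in FRT82 and CantonS wild types. Its log2 fold change was -1.73 ± 0.28 (3.32-fold lower, edgeR's adjusted p = 0.000329). A 1620-bp region of 2R (14144657 to 14146276) had 67.0 and 44.0 by ATAC-seq, against 143, 116 and 169.5, and 37.7 and 20.4 by FAIRE-seq, against 57.5 and 45.4, with -1.14 ± 0.22 (edgeR's adjusted p = 0.00109). Tumors and wild types did not overlap in either region, and 10 libraries had a called peak in each. Both stood among closing neighbours: 4 of 5 other merged peaks within 10 kb closed around the 3L region, and 5 of 8 around the 2R region.

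The fourth was a 1779-bp region of the X (1459625 to 1461403). It had 233 and 218 CPM per kb in the early and late tumor by ATAC-seq, against 299, 352 and 414 in FRT82, DGRP-208 and Optix-GFP wild types, with a log2 fold change over both techniques of -0.61 ± 0.16 (edgeR's adjusted p = 0.00932). This call held under 5 of 15 alternatives only, with edgeR or DESeq2 adjusted p between 0.00188 and 0.315. It was lost without any 1 of the tumor libraries but the early FAIRE-seq one, any 1 of the ATAC-seq wild types, or the FRT82 FAIRE-seq wild type. Around it 5 of 8 other merged peaks within 10 kb closed. The fifth, a 1516-bp region of the X (2917986 to 2919501), is named because the count of closed regions is 5. It changed by -0.75 ± 0.20 (edgeR's adjusted p = 0.0092) and its FAIRE-seq values overlapped, at 75.3 and 63.6 CPM per kb in the early and late tumor against 90.3 and 74.4 in FRT82 and CantonS wild types.

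**Figure D4:**
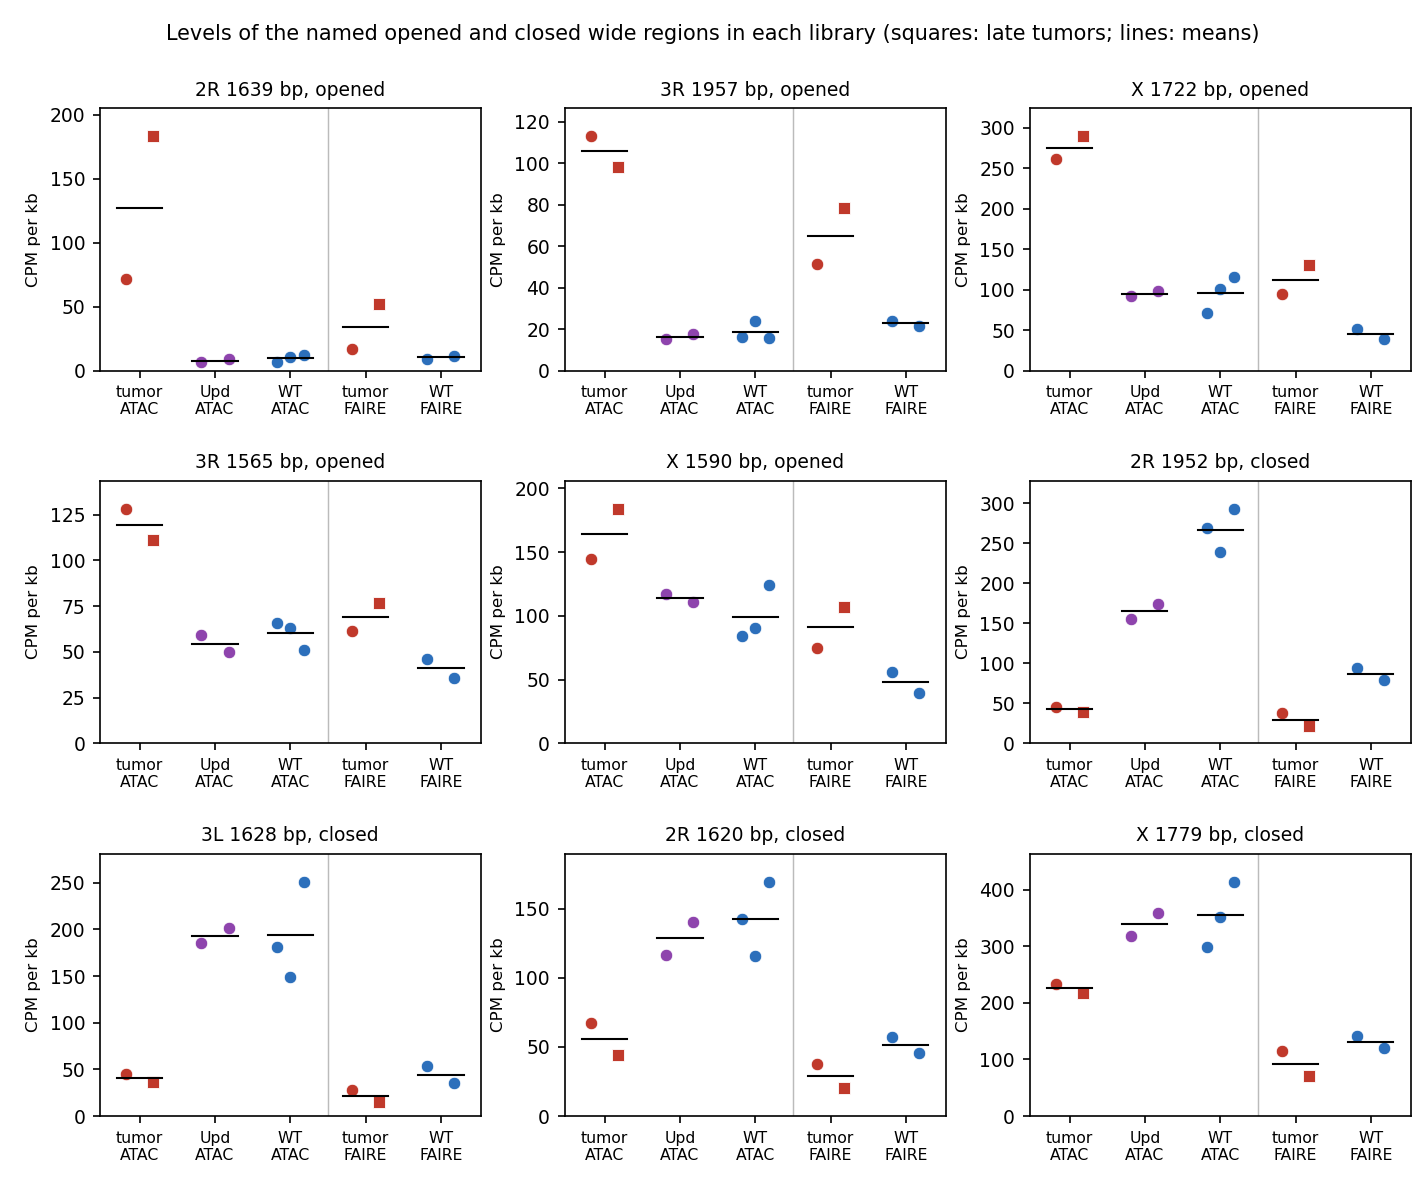
CPM per kb of the 9 named opened and closed wide regions in each library, grouped by tumor, Upd and wild type within ATAC-seq and FAIRE-seq, with squares for late tumors and a line at each group's mean. Vertical axes start at 0 and differ between panels. Tumor and wild type points do not overlap in any panel, and in the 1952-bp region of 2R the Upd points, at 155 and 175, are below the wild type points, at 239 to 293.

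The log2 fold changes of the 8 widest regions in tumors ran between -2.18 and 2.05, and 3 of the 8 were called. Those of at least 2000 bp had log2 fold changes between -0.10 and 0.47, and 1 of the 5 was called. The 2541-bp region of 3R had 142 and 134 CPM per kb in the early and late tumor by ATAC-seq, against 159, 144 and 105 in FRT82, DGRP-208 and Optix-GFP wild types, with a log2 fold change of 0.04 ± 0.15. The values overlapped by ATAC-seq, and so they did by FAIRE-seq, at 121 and 137 against 111 and 127. The 2154-bp region of 3R had 286 and 268 by ATAC-seq, against 196, 199 and 174, and opened by 0.47 ± 0.13 on the log2 scale (edgeR's adjusted p = 0.00957). The 2165-bp region of 2L had 154 and 184, against 198, 159 and 163, and the 2138-bp region of 2R had 97.1 and 89.3, against 91.8, 77.3 and 93.2, so that tumors and wild types overlapped in both by ATAC-seq. By FAIRE-seq the tumors were above the wild types in the 2165-bp region, at 145 and 161 against 126 and 139, and overlapped them in the 2138-bp region, at 89.5 and 91.98 against 90.2 and 95.7. By ATAC-seq, the 2134-bp region of 2R had 93.0 and 91.4, against 107, 106 and 91.5. The 1991-bp region of chromosome 4 had 323 and 334, against 242, 207 and 364, where the Optix-GFP wild type was above both tumors, and a log2 fold change of 0.15 ± 0.16.

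By stage there were fewer calls. Against wild types, 4 wide regions opened and 1 closed in early tumors (5.19% and 1.30%, where 4.21% and 2.86% of all merged peaks did). In late tumors 8 opened and 4 closed (10.4% and 5.19%, where 9.7% and 8.52% did). With late tumors set against early tumors directly, edgeR called 0 wide regions in either direction, as it called 0% of all merged peaks in either direction. Only 4 of the 77 (5.19%) had an unadjusted p under 0.05 there, against 4.11% of all merged peaks. With the wild types left out of that fit, 1 wide region was higher in late tumors and 11 had an unadjusted p under 0.05. That fit rests on 4 libraries with stage and technique as terms. The share of all merged peaks is not given for it, so these counts cannot be set against a background.

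In Upd discs edgeR called 0 of the 77 in either direction, where 0.00548% of all merged peaks were called higher and 0.011% lower, and DESeq2 called 0 too. An unadjusted p under 0.05 was found in 10 of the 77 (12.99%, against 7.06% of all merged peaks), and the lowest adjusted p was 0.426. Small shifts downwards were frequent: 56 of the 77 were below 0, both Upd libraries were below all 3 wild types in 21 regions (27.3%, against 12.9% of all merged peaks) and above them in 3 (3.896%, against 12.1%). The median log2 fold change was -0.13, against -0.01 over all merged peaks, and -0.12 from 1000 to under 1500 bp. With total counts the median of all merged peaks moved by 0.11, and that of the wide regions was then -0.01.

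The lowest p in Upd discs belonged to the 1952-bp region of 2R, chosen here after its values were seen. It had 155 and 175 CPM per kb in the 2 Upd libraries, against 269, 239 and 293 in FRT82, DGRP-208 and Optix-GFP wild types, and a log2 fold change of -0.68 ± 0.17. Upd and wild type values did not overlap, at an unadjusted p of 0.00198. The same wild types enter the tumor comparison, in which this region had -2.65 ± 0.22 by ATAC-seq. The 1639-bp region of 2R had 6.34 and 9.31 CPM per kb in Upd discs, against 6.56, 10.2 and 11.98 in wild types, and these values overlapped.

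CTCF peaks overlapped 26 of the 77 wide regions (33.8%, exact Clopper-Pearson 95% interval 23.4 to 45.4, which treats regions as independent), against 8.13% of merged peaks under 1500 bp. The share followed width, with 25.2% from 1000 to under 1500 bp, 12.5% from 500 to under 1000 bp and 6.70% under 500 bp. Per length, with any overlap counted, there was no such order: 0.222 CTCF peaks per kb in wide regions, 0.244, 0.194 and 0.272 in these classes. The order of these densities depended on the overlap that counts. A merged peak shorter than the required part of a CTCF peak cannot meet a stricter limit, which bears on the narrow classes. With at least 40% of the CTCF peak inside the merged peak they were 0.222 per kb in wide regions and 0.228, 0.176 and 0.161 in these classes, and with at least 80% inside 0.207, 0.196, 0.148 and 0.100, in the order of width. The share of wide regions with CTCF was 33.8% at 40% and 32.5% at 80%, against 5.75% and 4.16% of narrower ones. Of the 29 CTCF peaks in wide regions, 22 lay wholly inside.

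**Figure D5:**
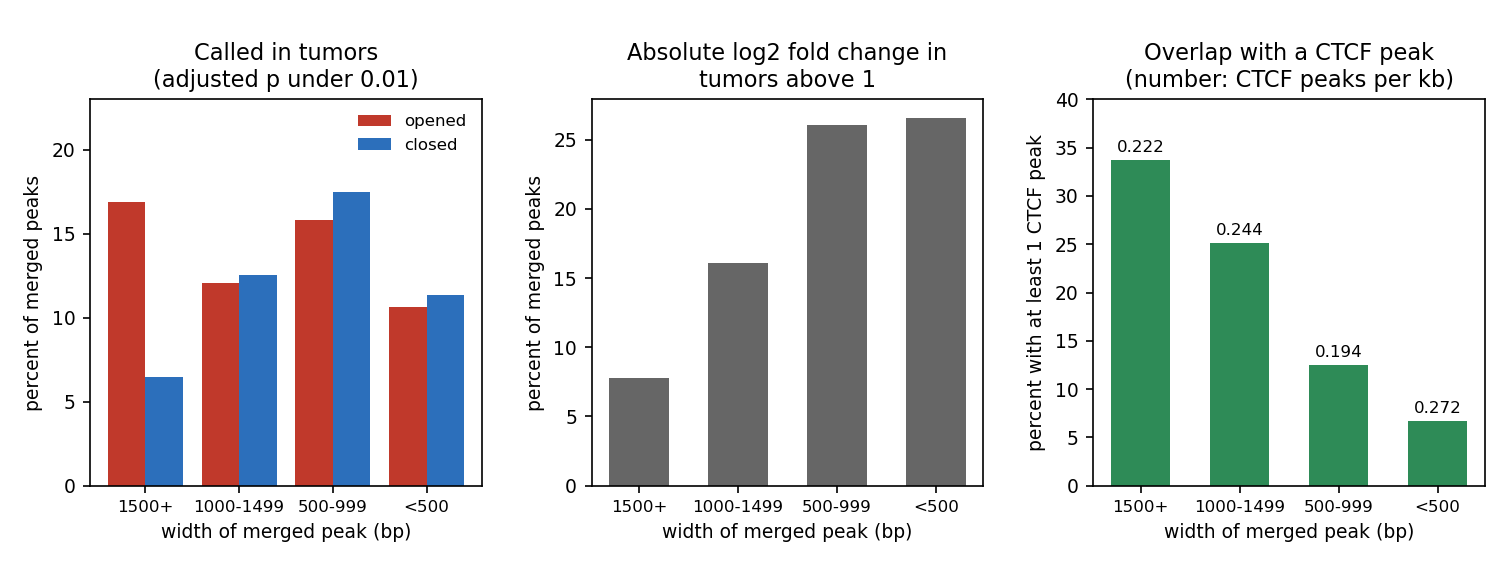
Merged peaks by width class (1500 bp and more, from 1000 to under 1500, from 500 to under 1000 and under 500 bp): percent opened and closed in tumors with both techniques (left), percent with an absolute log2 fold change above 1 (middle) and percent that overlap a CTCF peak, with the CTCF peaks per kb written above each bar (right). Opened and closed shares are 16.9 and 6.49% in the widest class and nearly equal in the others, large changes are fewest in it at 7.79%, and the CTCF share is highest in it at 33.8%.

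The CTCF peaks came from 1 ChIP-seq library and have no replicate. Within wide regions 23 held 1 CTCF peak and 3 held 2: the 2541-bp region of 3R, the 1834-bp region of the X and a 1516-bp region of the X (19389745 to 19391260). The last had 147 and 168 CPM per kb in the early and late tumor by ATAC-seq, against 156, 168 and 231 in FRT82, DGRP-208 and Optix-GFP wild types, and a log2 fold change of -0.05 ± 0.16. The 1834-bp region was lower in tumors, at 251 and 246 against 339, 297 and 735.5, with -0.79 ± 0.23 (edgeR's adjusted p = 0.013), which missed the threshold. CTCF midpoints were spread along the regions, with 12 in the inner part, 16 in the outer part of equal length and 1 beyond the edge. Of the 26 regions with CTCF, 3 opened and 1 closed, and of the 51 without CTCF, 10 opened and 4 closed. In tumors the median log2 fold change was 0.13 with CTCF and 0.20 without, and the median wild type ATAC-seq level 149.5 and 123 CPM per kb. These differences between members were not tested.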

How the data were processed

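The authors trimmed reads, aligned them to the FlyBase r5.53 genome (dm3) by bowtie2, removed reads of low mapping quality and of Wolbachia, centred ATAC-seq reads on cut sites, called peaks per sample with MACS2, merged them, and counted reads with htseq-count. They deposited raw counts per merged peak, and peak positions. Reads were counted over the whole merged peak, so the count of a wide region sums over all peaks in it. The libraries had 2375435 to 10871706 counts.

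Wide regions, lists and tests were chosen with earlier results of these data known. The merged list has 36507 peaks, of which 1 (not wide) has no counts. The test was the robust quasi-likelihood F-test of edgeR 4.0.16 (R 4.3.3), with TMM factors of the fitted libraries, Benjamini-Hochberg adjustment over every merged peak that had a read, and calls at an adjusted p under 0.01. Standard errors are the size of the log2 fold change over the root of F. Comparisons were tumor against wild type (9 libraries with technique as a term, and each technique alone), its interaction with technique, the stages in 1 model, Upd against wild type by ATAC-seq (5 libraries), and ATAC-seq against FAIRE-seq in wild types (5 libraries). The fits of tumor (both techniques and each alone) and of Upd against wild type were tested on simulated counts. Those counts had a single dispersion for all merged peaks and no difference between techniques. They therefore do not show how the fits behave on these libraries. CPM and overlaps (1 bp or more) were computed in Python 3.11.15 with pandas 2.3.3, and figures drawn with matplotlib 3.10.9. Starts are printed counting from 1 in dm3. No sequence is shown, since no dm3 genome was used here.

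Named were the 8 widest regions, the 3 highest and 3 lowest in wild type ATAC-seq, up to 5 opened and 5 closed in tumors and in Upd with the largest change and no overlap of groups, the 3 extremes of technique, the 3 with most CTCF peaks, and 3 on either side of the limit. Alternatives were DESeq2 1.42.0, median-ratio factors, total counts, TMM on narrower peaks, a mean count of at least 10, no technique term, stages fitted separately, width limits of 1000 and 2000 bp, stricter overlaps, and each library left out.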

Additional observations from a re-analysis of the deposited data

How the results depend on the processing

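Without the technique term, 2 wide regions opened and 1 closed in tumors, and with median-ratio size factors 3 closed. Leaving out 1 library gave 5 to 13 opened and 3 to 7 closed over both techniques, 3 to 10 opened and 2 to 4 closed by ATAC-seq, and 0 to 7 opened and 0 to 3 closed by FAIRE-seq, where the count was 0 and 0 without the late tumor and 7 opened without the FRT82 wild type. For ATAC-seq against FAIRE-seq in wild types it gave 0 to 31 higher, and total counts gave 20 higher and 2 lower. In Upd discs 0 of the 77 were called under every test, scaling, filter and left-out library run, and from 1000 to under 1500 bp 1 merged peak was called lower. Late against early, the separate fit gave 1 higher and 0 lower. At 2000 bp, with 5 regions, 0% closed in tumors over both techniques, 0% opened and 0% closed by ATAC-seq and by FAIRE-seq, and 60% held a CTCF peak. The tumor to wild type ratio of read shares was 1.05 by ATAC-seq and 1.02 at a limit of 1000 bp, by FAIRE-seq 1.09 and 1.03, and the ratio of ATAC-seq to FAIRE-seq was 1.27, against 1.34 at 1000 bp and 0.945 at 2000 bp. The log2 fold changes of the 9 regions named as opened or closed kept their sign under 15 alternatives, and those of the 6 named for their difference between techniques under 7. The other named regions were not run. Without the technique term the 1620-bp region of 2R, the 1628-bp region of 3L, the 1565-bp region of 3R and the 1779-bp, 1590-bp and 1722-bp regions of the X lost their call. No paired analysis was possible because replicate numbers stand in the labels of the Upd libraries only. The share of all merged peaks called under these alternatives is not given, and the causes of these shifts were not tested. Where 1 library is left out of a group of 2, the lone library is assumed to vary like the others. The lowest count of a wide region in any library was 40, in the FRT82 FAIRE-seq library.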

Other observations

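The median gap from a wide region to the nearest merged peak was 599 bp. It was 306 bp from 1000 to under 1500 bp and 316 bp over all merged peaks. Within 5 kb a wide region had a mean of 3.19 other merged peaks, against 4.32 over all merged peaks. The mean was 3.60 from 1000 to under 1500 bp, so fewer neighbours were not particular to the wide regions. Merging takes overlapping calls into a single region, and its part in these gaps and neighbour numbers was not tested. Chromosome 4 held 2 of the 77, or 5.35 per 1000 of its merged peaks, the X 3.11, 2R 2.53, 3L 1.82, 3R 1.78 and 2L 1.31. Of the opened regions, 4 were on 3R, 3 each on the X and 2L, 2 on 2R and 1 on 3L, and of the closed ones 2 each on the X and 2R and 1 on 3L.

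In 5 places 2 wide regions lay within 60 kb of each other. The closest pair, on 2R 10716 bp apart, held the 1639-bp region with a log2 fold change of 2.88 in tumors and the 2134-bp region with -0.10. The pair 11572 bp apart on 2R had -0.01 in the 1513-bp region and 0.75 in its neighbour. The other pairs differed by little, with 0.35 and 0.35 on 3R, 0.15 and 0.30 on chromosome 4, and 0.14 and 0.10 on the X. Besides the genes named above, regions paired with Tm1, which encodes tropomyosin, and rho, which encodes the protease that releases EGFR ligands, lay 3480 and 14871 bp from a wide region, and 11 of the 77 had a paired region within 20 kb, while 0 were themselves paired with a gene.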
